A study of Zea mays with 4 samples.

Results

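The genes described here are 3 cellulose synthases of the secondary wall, cesa10 (LOC542685), cesa11 (LOC542139) and CesA12 (LOC542514), and bk2 (LOC778435), the brittle stalk2 gene. They were found by symbol or synonym in the platform annotation, which assigned 1 probe set to each, so they make up 4 of 17621 probe sets that are not controls. The series profiled 2 inbred lines of maize, Cm489 and F98902, on 4 Affymetrix maize arrays with biotin-labelled total RNA, 2 arrays for each line. The labels give soil-grown plants, aerial material and the flower development stage for both lines, with no treatment or allele named. They name no organ and leave unsaid whether each sample is its own plant, though each title carries a different, unexplained pl code. The spread between the arrays of a line may therefore be technical or biological.

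Cellulose is made at the plasma membrane by complexes of cellulose synthase (CESA) proteins, and each complex needs more than one kind of CESA. One group of CESA proteins serves the thin primary wall of growing cells, and another the thick secondary wall laid down later in xylem and fibre cells, where lignin is added as well. Cesa10, cesa11 and CesA12 are the maize genes of the second group. Bk2 encodes a COBRA-like protein anchored at the cell surface, and maize bk2 mutants have brittle stalks with less cellulose. In a stem, such transcripts come mainly from cells that are thickening their walls. On arrays of whole tissue, fewer such cells and less RNA per cell cannot be told apart.

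All values are log2 signals made by the authors with GCRMA, and 1 unit is a 2-fold step. All 16 values of the 4 genes lay between 9.33 and 13.85, above the limit of 4 below which a probe set was treated as dim. Each gene therefore had a usable signal on every array, and all 4 were among the 11242 probe sets tested.

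Cesa10 had a log2 signal of 9.33 on Cm489 replicate 1, 13.04 on Cm489 replicate 2, 12.67 on F98902 replicate 1 and 9.97 on F98902 replicate 2. Each line had 1 high and 1 low array, and the lines overlapped. Replicate 2 of Cm489 was 3.71 above replicate 1, which is 13.1-fold. In F98902 the direction was the opposite: replicate 2 was at -2.70 relative to replicate 1, a 6.51-fold higher signal on replicate 1.

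Cesa11 was at 9.71 and 13.61 on the Cm489 arrays and at 13.01 and 10.86 on the F98902 arrays, replicate 1 first. Its arrays stood in the same order as those of cesa10. The step from replicate 1 to replicate 2 of Cm489 was 3.90, or 14.9-fold, and that of F98902 was -2.15, with replicate 1 4.44-fold higher. The suffix s_at of its probe set marks probes shared by more than one transcript, so other transcripts may add to its signal.

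CesA12 was at 10.59 and 13.85 in Cm489 and at 13.68 and 11.38 in F98902. It was again highest on Cm489 replicate 2 and lowest on Cm489 replicate 1. The differences of replicate 2 minus replicate 1 were 3.26 (9.56-fold) in Cm489 and -2.30 (replicate 1 4.93-fold higher) in F98902.

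Bk2 was at 10.86 and 13.21 in Cm489 and at 11.67 and 10.10 in F98902. It too was highest on Cm489 replicate 2, with F98902 replicate 1 next, but its lowest array was F98902 replicate 2 and not Cm489 replicate 1. Its steps were smaller, 2.35 (5.12-fold) in Cm489 and -1.57 (replicate 1 2.98-fold higher) in F98902. F98902 replicate 1 minus Cm489 replicate 2 was -1.54 for bk2, against -0.37, -0.60 and -0.17 for cesa10, cesa11 and CesA12.

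**Figure D1:**
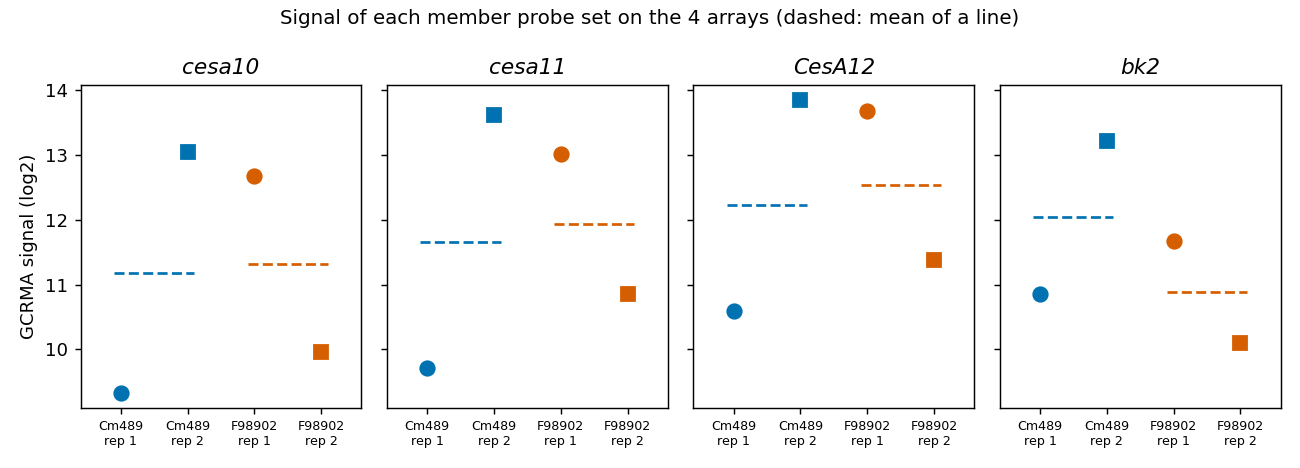
Log2 GCRMA signal (y axis) of each gene on each of the 4 arrays (x axis; blue Cm489, orange F98902, circles replicate 1, squares replicate 2, dashed lines the mean of a line). The signal is high on Cm489 replicate 2 and F98902 replicate 1 for the 3 CESA genes, from 12.67 to 13.85, and low on the other arrays, from 9.33 to 11.38.

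These steps were set against the same differences in all tested probe sets. A step of at least 1 upward from replicate 1 to replicate 2 of Cm489 was seen for 4 of 4 genes and for 15.6% of all tested probe sets. A step of at least 1 downward in F98902 was seen for 4 of 4 genes and for 18.5% of all. Both together held for 4 of 4 genes and for 9.16% of all, 1030 probe sets. The mirror pattern, down in Cm489 and up in F98902, held for 8.85% of all and for none of the 4. With 1 array on each side of every step there is no test of these differences.

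Steps as large as these were found in a minority of probe sets. In Cm489 a step at least as large as that of the gene was found for 1.81% of tested probe sets with cesa10, 1.57% with cesa11, 2.45% with CesA12 and 4.93% with bk2. In F98902 a fall at least as large was found for 4.46%, 6.81%, 6.11% and 11.1%, in the same order of genes. Steps as large in both lines at once were found for 123 probe sets with cesa10, 122 with cesa11, 159 with CesA12 and 335 with bk2. Over all tested probe sets the median step was -0.11 in Cm489 and 0.05 in F98902, and GCRMA, which normalises between arrays, keeps such medians near 0.

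**Figure D2:**
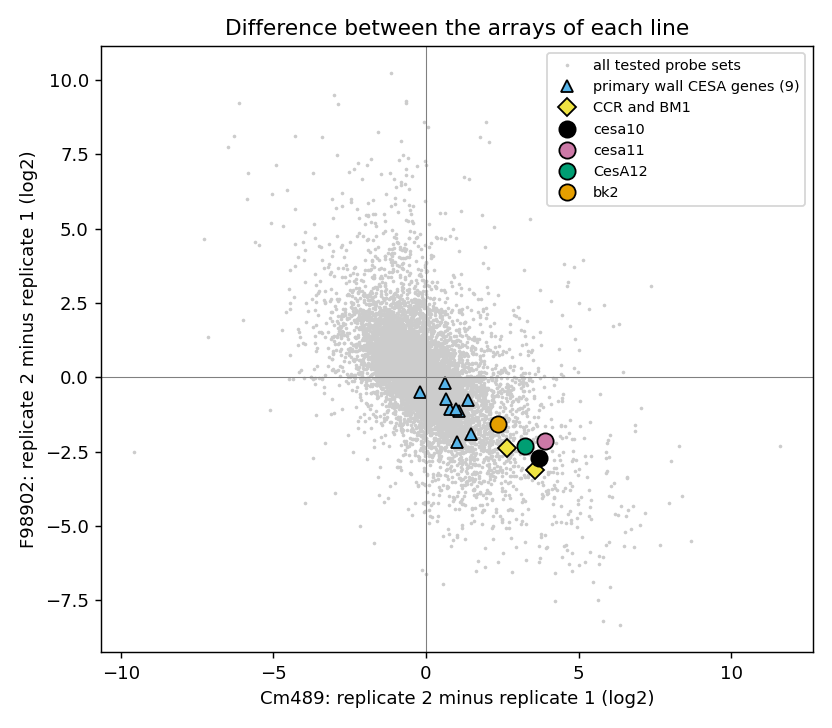
Replicate 2 minus replicate 1 in Cm489 (x axis, log2) against the same in F98902 (y axis, log2) for the 11242 tested probe sets (grey), the 4 genes (large circles), 9 primary wall CESA genes (triangles) and the lignin genes CCR and BM1 (diamonds). The secondary wall CESA genes lie at the lower right, at 3.26 to 3.90 and -2.70 to -2.15, beside CCR and BM1. On the x axis bk2 lies between these genes and the primary wall CESA genes. On the y axis it lies, at -1.57, within the range of the primary wall CESA genes, -2.17 to -0.19.

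The comparison the design allows is that between the lines, which asks whether lines of a series on cell wall diversity differ in these genes. Mean signal of cesa10 was 11.18 ± 2.63 (SD, n = 2) in Cm489 and 11.32 ± 1.91 (SD, n = 2) in F98902. The difference, F98902 minus Cm489, was 0.13 (limma SE 1.66, 95% interval -4.46 to 4.73, adjusted p = 0.993). Cesa11 was at 11.66 ± 2.76 and 11.93 ± 1.52, a difference of 0.27 (interval -4.19 to 4.73, limma adjusted p = 0.987). CesA12 was at 12.22 ± 2.30 and 12.53 ± 1.63, a difference of 0.31 (interval -3.72 to 4.33, limma adjusted p = 0.982). Bk2 was at 12.04 ± 1.67 and 10.88 ± 1.11, a difference of -1.15 (SE 1.07, interval -4.11 to 1.80, limma adjusted p = 0.854).

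None of the 4 genes passed the test (0 of 4 at an adjusted p under 0.05, limma), and none did at an unadjusted p under 0.05, the lowest being 0.341 for bk2. The share of all tested probe sets that passed was 1.78%, made up of 0.934% with a higher and 0.845% with a lower signal in F98902. The lines overlapped for all 4 genes, and the arrays of the lines did not overlap for 38.0% of tested probe sets. Lack of overlap between 2 and 2 arrays has p = 0.333 in an exact test. A share near 38.0% is thus not far from that of lines with no difference. The intervals are wide, so equal levels are not shown. The median difference of the 4 genes was 0.20, against -0.02 over all tested probe sets. The median SD between arrays was 2.46 in Cm489 and 1.57 in F98902 for the 4 genes, against 0.45 and 0.52 over all.

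The direction of the line difference depended on which arrays were used. The difference in cesa10 was -1.72 without Cm489 replicate 1, 1.99 without Cm489 replicate 2, -1.22 without F98902 replicate 1 and 1.49 without F98902 replicate 2. In the same order of left-out arrays it was -1.68, 2.22, -0.81 and 1.35 for cesa11. CesA12 gave -1.32, 1.94, -0.84 and 1.46. Each of the 3 CESA genes thus turned to lower in F98902 without either replicate 1. Bk2 gave -2.33, 0.0244, -1.94 and -0.37, and so its difference was near 0 without Cm489 replicate 2.

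**Figure D3:**
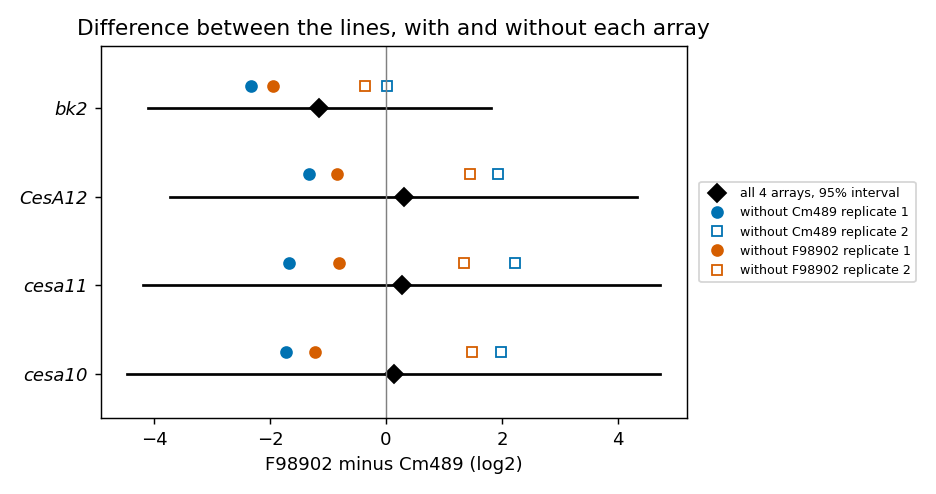
Difference F98902 minus Cm489 (x axis, log2) for each gene (y axis) from all 4 arrays with its 95% interval (black) and with 1 array left out (blue Cm489, orange F98902; filled without replicate 1, open without replicate 2). The interval of every gene spans 0, and the CESA values lie on both sides of 0 when single arrays are left out.

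How alike the genes ran was measured as the root mean square difference between their profiles over the 4 arrays, each centred on its own mean. This measure is 0 for parallel profiles and grows with unequal steps as well as with unequal direction. Cesa10 and cesa11 differed by 0.22, cesa10 and CesA12 by 0.23, and cesa11 and CesA12 by 0.23. The median over all other tested probe sets was 1.77 from cesa10, 1.73 from cesa11 and 1.58 from CesA12. Of 11241 other probe sets, cesa11 was the 2nd nearest to cesa10 and CesA12 the 4th nearest. From CesA12, cesa10 was the 8th and cesa11 the 9th nearest. The 3 CESA genes thus ran almost in parallel over these 4 arrays. Their values come from the same 4 RNA samples, and the arrays were normalised together.

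Bk2 stood further off, at 0.90 from cesa10, 0.92 from cesa11 and 0.84 from CesA12. It was the 436th nearest probe set to cesa10, the 456th to cesa11 and the 584th to CesA12. Its nearest annotated gene, named after values were seen, was HPL (LOC542163), for the hydroperoxide lyase that makes green leaf volatiles, at 0.18. HPL had log2 signals of 7.21 and 9.38 in Cm489 and 7.52 and 6.12 in F98902.

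Among annotated genes outside the 4, those nearest the mean profile of the 3 CESA genes included CCR and BM1, which encode late enzymes of lignin precursor synthesis. CCR (LOC542463), the gene for cinnamoyl-CoA reductase, was at a distance of 0.26, with log2 signals of 10.12 and 13.68 in Cm489 and 13.61 and 10.49 in F98902. It was the nearest of all 11241 probe sets to cesa10 (0.16). BM1 (LOC542663), the cinnamyl alcohol dehydrogenase of the brown midrib1 locus, was at 0.37, with 11.27 and 13.91 in Cm489 and 13.77 and 11.41 in F98902. Each of the 2 genes, like cesa10, was highest on Cm489 replicate 2, next on F98902 replicate 1, and lowest on Cm489 replicate 1.

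The other genes of the 8 nearest were LOC541946 (0.26), dbf2 (LOC541957, 0.35), LOC606403 (0.37), UGlcAE (LOC732831, 0.42), sat2 (LOC541959, 0.44) and LOC541947 (0.46). Each gene stands by its nearest probe set. The probe set used for UGlcAE had steps of 3.68 in Cm489 and -3.55 in F98902. Another probe set named UGlcAE had steps of -0.06 and -3.17, and so did not rise in Cm489. Dbf2 encodes a DRE-binding transcription factor and sat2 a serine acetyltransferase. Of the 8, LOC541947 lay under 4 on both low arrays (2.48 and 2.86), where a value gives no level. Over all probe sets, 77 others lay within 0.5 of the CESA mean profile and 748 within 1. Only 9 of the 77 had an annotated gene. A likeness over 4 arrays describes these arrays and was not tested.

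**Figure D4:**
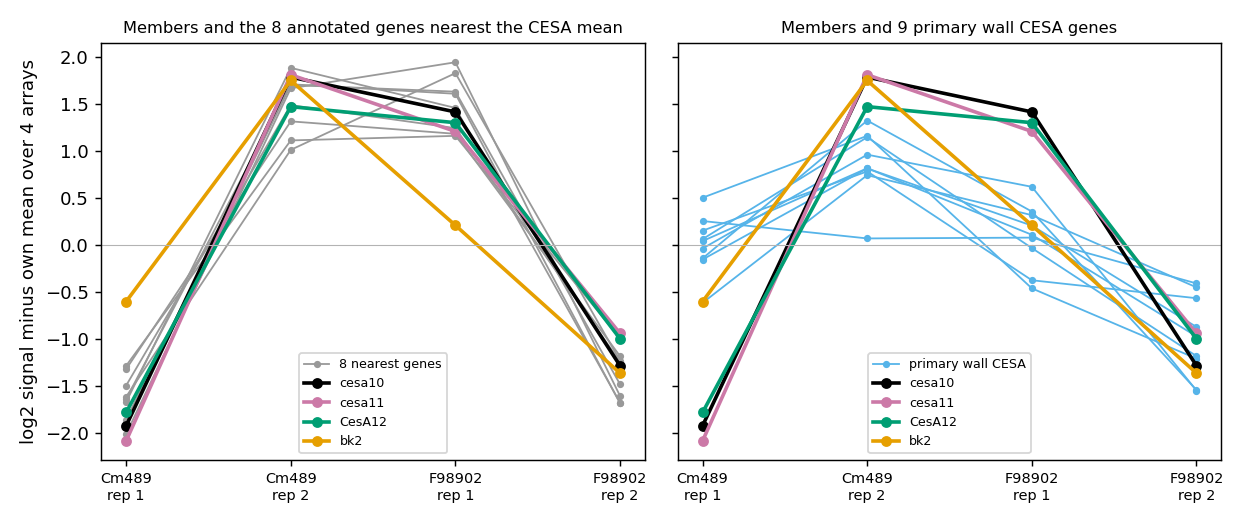
Log2 signal minus the gene's own mean (y axis) on the 4 arrays (x axis) for the 4 genes with the 8 nearest annotated genes (left, grey) and with 9 primary wall CESA genes (right, light blue); lines only join the points of a gene. The 3 CESA genes overlie one another, and bk2 leaves them on Cm489 replicate 1 and F98902 replicate 1, where it lies nearer to the primary wall genes.

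The primary wall CESA genes were set beside them. Of 6 found by symbol (cesa2, cesa3, cesa5, cesa6, cesa7 and cesa8), all 6 were tested. Of these, 0 passed in either direction, beside 1.78% of all tested probe sets. A lower mean in F98902 was seen for 5757 of 11242 tested probe sets and for all 6 genes. The median difference of the 6 was -1.06, with a range from -1.67 to -0.13. This count of lower genes was 5 of 6 without Cm489 replicate 2 (median -0.44) and 4 of 6 without F98902 replicate 2 (median -0.16), and the median was -1.59 without Cm489 replicate 1 and -1.90 without F98902 replicate 1. Their steps in Cm489 ran from -0.19 to 1.47, with 3 of 6 at 1 or more, and those in F98902 from -2.17 to -0.49, with 3 of 6 at -1 or less. Both together held for 2 of 6, cesa3 (1.47 and -1.90) and cesa8 (1.09 and -1.15), beside 9.16% of all tested probe sets. A rise in Cm489 and a fall in F98902 of any size was thus seen in every one of the 6 but cesa5, which fell in both. The share of all tested probe sets with such a rise and fall was not taken. Over all of them the steps of the lines correlated at -0.558. Every one of the 6 steps in Cm489 was smaller than that of bk2 and of each secondary wall CESA gene. This did not hold in F98902, where cesa6 (-2.17) and cesa3 (-1.90) fell by more than bk2 (-1.57). The fall of cesa6 was also slightly larger than that of cesa11 (-2.15).

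The 3 examples with the highest mean were cesa7, cesa2 and cesa5. Cesa7 (LOC541805) had 12.42 and 13.78 in Cm489, then 13.35 and 12.58 in F98902, the order of arrays seen for the 3 secondary wall CESA genes. Cesa2 (LOC542564) was at 12.73 and 13.39, then 11.77 and 11.02, and was lower on both F98902 arrays (-1.67, SE 0.52, limma adjusted p = 0.396). The arrays of the lines did not overlap for 38.0% of all tested probe sets. Cesa5 (LOC541803) changed little between arrays, with 12.48 and 12.29 in Cm489, then 12.30 and 11.81 in F98902.

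With CesA-1, CesA-4 and CesA-9, whose hyphenated synonyms were added after the data were seen, 9 primary wall genes were compared with both profiles. Their distance from the secondary wall CESA mean had a median of 1.23 and reached 1.53, and that from bk2 had a median of 0.60 and reached 1.06. All 9 were nearer to bk2 than to the secondary wall CESA mean. Tested probe sets in general also lay nearer to bk2, with a median distance of 1.33 from bk2 against 1.69 from the CESA mean. The smaller steps of bk2 enter this measure along with its order of arrays, so the shorter distance is not a matter of shape alone. No test of this difference can be had from 4 arrays.

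Of the relatives of bk2, Bk2L3 (LOC541793) and Bk2L6 (LOC100037799) were on the array, both named after values were seen. Bk2L3 had log2 signals of 13.51 and 13.88 on the Cm489 arrays and 12.63 and 12.13 on the F98902 arrays. The lines thus did not overlap for Bk2L3, as for 38.0% of all tested probe sets. Its difference of -1.31 (SE 0.45) did not pass (limma adjusted p = 0.445). Its steps between the arrays of a line, 0.37 and -0.50, were small beside those of bk2. Bk2L6 lay between 2.09 and 2.14 on all 4 arrays, at the floor of the scale, where a value gives no level.

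Other genes linked to wall building were read from lists fixed by symbol. Of 4 lignin genes found by symbol, PAL1, BM1 and LAC1 were tested. The 4 leave out CCR because its symbol was not listed. Of the 3 tested, 0 passed, beside 1.78% of all tested probe sets. PAL1 (LOC542258), for phenylalanine ammonia-lyase at the entry of the pathway, had steps of only 0.54 and -0.40. Its arrays (14.03 and 14.57, then 14.53 and 14.13) still stood in the order of the secondary wall CESA genes. LAC1 (LOC606456), a laccase gene, had steps of -1.30 and 0.28. BM1 alone of the 3 had a step of at least 1 up in Cm489 and down in F98902, beside 9.16% of all tested probe sets. Ccr2 (LOC542735), a second cinnamoyl-CoA reductase gene, was above 4 only on Cm489 replicate 2 (7.21) and was not tested.

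Neither myb42 (LOC100101513) nor myb31 (LOC100037768), MYB repressors of lignin genes, shared the pattern. Myb31 was at 9.98 and 10.53 in Cm489 and at 7.24 and 8.72 in F98902, and myb42 at 10.99 and 10.62, then 8.69 and 10.16. Both had their lowest value on F98902 replicate 1, an array on which the secondary wall CESA genes were high. Neither passed between the lines (limma adjusted p = 0.373 and 0.653), beside 1.78% of all tested probe sets.

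Sucrose synthase supplies UDP-glucose, the substrate of cellulose synthesis. Its 3 genes sus1, sh1 and sus2 were tested and 0 of 3 passed, beside 1.78% of all tested probe sets. Their steps ran from -0.17 to 0.65 in Cm489 and from -0.48 to 0.34 in F98902. The arrays of sus1 (13.71 and 14.37, then 14.24 and 13.76) stood in the order of the secondary wall CESA genes, with smaller steps. Tubulins form the microtubules that guide the synthase complexes. Of 10 tubulin genes tested 0 passed, beside 1.78% of all tested probe sets. A step of at least 1 in both lines in the direction of the CESA genes was seen in 1 of 10. This share was near the 9.16% of all tested probe sets. The gene was TUBB2 of the beta-tubulin family (1.59 and -2.03).

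Markers of other cells moved with the secondary wall CESA genes in part. Of 7 genes of photosynthetic leaf cells, 6 were tested. A step of at least 1 in Cm489 was seen in 5 of 6, beside 15.6% of all tested probe sets. A fall of at least 1 in F98902 was seen in 3 of 6, beside 18.5% of all. Both together held for 3 of 6, beside 9.16% of all. The summed signal of the list was 11.36 and 14.68 in Cm489 and 15.32 and 12.57 in F98902 on the log2 scale. Cab-m7, a chlorophyll a/b-binding protein gene, had 6.86 and 13.87, then 14.69 and 9.71, the largest steps of the list (7.01 and -4.97), and carries much of the swing of the sum. RbcS (LOC542212), for the small subunit of Rubisco, was at 10.59 and 12.95, then 12.79 and 10.60. Psbs1 (LOC542126) was at 7.81 and 10.56, then 12.02 and 9.52, with steps of 2.76 and -2.50. These 3 genes are those with both steps of at least 1. The other tested genes of the list did not have both. Of them, me3 (LOC542233), for NADP-malic enzyme, had steps of 0.42 and 2.63, and the C4 photosynthesis gene Ppdk1 (LOC542759) of 1.47 and -0.37. The list includes pdk1 (LOC541677), matched by symbol alone (steps of 1.10 and -0.57). Without it 4 of 5 tested genes had the step in Cm489 and 3 of 5 the fall in F98902. The sums were then 11.29, 14.66, 15.31 and 12.49. The part of these cells in the CESA result was not tested.

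Of 2 meristem genes, kn1 (LOC542391) had steps of 1.31 and -1.45 and lg3 (LOC542487) of -1.24 and -0.13, and the summed signal was 10.47 and 11.36 in Cm489 and 11.17 and 10.21 in F98902. Of 5 pollen genes, the profilin genes prf1, prf2 and prf3 and mgs1 were under 4 on every array, and the summed signal, almost all from TUA1, was 10.57 and 11.22, then 11.16 and 11.79. Of 4 epidermal wax genes, gl15 was under 4 on every array, and the sums were 11.54 and 11.21, then 11.61 and 11.20. These include fdh1, matched by symbol alone, and without it the sums were 10.52, 9.88, 8.93 and 9.79. None of the genes tested in these lists passed between the lines, beside 1.78% of all tested probe sets.

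Measures of RNA integrity moved with the same arrays for some control transcripts. The 5' minus 3' signal of cyclophilin was -1.61 and -1.02 in Cm489 and -0.83 and -1.65 in F98902, and that of GAPDH -4.10 and -3.27, then -2.02 and -3.65. Both were less negative on the arrays where the CESA genes were high. Ubiquitin (-1.60, -1.55, -1.60 and -1.36) and EF1-alpha (-3.42, -4.44, -1.88 and -2.97) did not follow that order. The RNA amounts on the labels were 102 ug and 52 ug for replicates 1 and 2 of F98902 and 100 ug for replicate 2 of Cm489. The note for the other Cm489 array names a different sample, so no amount was used for it. The part of RNA integrity and amount in the result was not tested.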

How the data were processed

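The authors deposited 1 log2 value per probe set and array, made with GCRMA (background correction, normalization between arrays, summary of probes) per the submitters' processing notes. The GCRMA version is not given in the sources used here, nor are its settings, and base 2 was taken from the range of values. Array medians ran from 7.00 to 7.12, no detection calls were used here, and the number of arrays limits precision. A probe set was tested when it reached log2 4 on at least 2 of 4 arrays. All 11242 were fitted together with limma 3.58.1 (lmFit, eBayes, constant prior) in R 4.3.3, two-sided, with Benjamini-Hochberg adjustment. The fit was also run on simulated data with independent errors in each probe set, so swings shared across probe sets were not covered. An exact test of 2 against 2 arrays cannot go below p = 0.333.

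Gene names came from GEO's platform annotation, updated through Entrez numbers to RefSeq (Zm-B73-REFERENCE-NAM-5.0): of 17621 probe sets 1452 had 1 gene, 1 several and 16168 none, and 1377 matched RefSeq. For genes with several probe sets, lists use that of highest mean, and the search for nearest genes uses the nearest probe set. Named genes are the 4 genes, the 8 annotated genes nearest the CESA mean profile, and up to 3 examples per list with the highest mean; others were chosen after their values were seen. Members and lists were chosen with earlier results of these data known. Alternatives were other dim filters, an intensity-dependent robust prior, 2 scalings, a floor at 4, a replicate block and each array left out.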

Additional observations from a re-analysis of the deposited data

How the results depend on the processing

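The 28 differences between lines of the 4 genes under other filters, priors, scalings, a floor at 4 and the replicate block kept their direction and did not pass. They ran from 0.12 to 0.19 for cesa10, 0.26 to 0.33 for cesa11, 0.30 to 0.36 for CesA12 and -1.17 to -1.10 for bk2. The number of arrays limits their precision. With 1 array left out, 7 of 16 turned: cesa10 ran from -1.72 to 1.99, cesa11 from -1.68 to 2.22, CesA12 from -1.32 to 1.94 and bk2 from -2.33 to 0.0244, and their median from -1.70 to 1.96. These fits assume that the lone array varies like the other line. The steps between the arrays of a line kept direction under both scalings, and moved by less than the median SD between arrays. The floor could not move these steps, as all values of the 4 genes lay above it. The count of all probe sets past the threshold was 200, against 79 with no dim filter, 8 with an intensity-dependent robust prior, 115 with values under log2 4 raised to 4, 0 in the fit with a replicate block and 0 to 0 with each array left out (limma, with 1183 at an unadjusted p under 0.05 in all 4 arrays). No member passed under any of these. The labels do not say that replicate numbers pair samples, and the steps of the lines correlated at -0.558 over tested probe sets. A block with crossed numbers, chosen after seeing the data, gave 284 calls and 0 members. Of the 8 genes most like the CESA mean, 7 were shared under quantile normalization and 6 by Pearson correlation. The cause of these changes was not tested.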
